A study of Mus musculus with 24 samples.

Results

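Adenovirus carrying MyoD was compared with no virus in wild type mouse C3H 10T1/2 cells, a fibroblast line of embryonic origin, over 8 of the 24 RNA-seq libraries of the study. The 4 libraries with virus were 2 with MyoD adenovirus alone and 2 with MyoD adenovirus plus a plasmid carrying LncMyoD, a long noncoding RNA. The 4 libraries without virus were 2 untreated and 2 with the LncMyoD plasmid alone. The members were taken by their labels (wild type genotype, treatment), and the plasmid entered every fit as a block. The other 16 libraries come from 2 LncMyoD knockout clones under the same 4 treatments. No group labelled as empty virus or empty plasmid was used, so an effect of MyoD cannot be told apart from one of the virus that delivered it. Cells grew in medium with 10% fetal bovine serum, which was exchanged for 2% horse serum once MyoD had started conversion. The labels do not say whether the 2 replicates of a group were separate cultures, so the p-values reflect nothing beyond the spread among these libraries, which may be technical.

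MyoD, the product of Myod1, is a basic helix-loop-helix transcription factor that binds E-boxes (CANNTG) together with E proteins and can turn fibroblasts into muscle cells. In that programme it induces the related factor myogenin, MEF2 proteins cooperate with both, and genes of the sarcomere, of membrane excitation and of myoblast fusion follow. Differentiation in muscle normally goes with exit from the cell cycle and with IGF2 secretion, which acts back on the same cells.

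Values are TPM, a length-normalised share of all transcripts, summed over the transcripts that carry a gene's reference identifier, scaled between libraries by the median of ratios, and tested with limma on log2(TPM + 1). A gene was said to rise or fall at a Benjamini-Hochberg adjusted p under 0.05 over all genes tested. Depth ran from 4.4 to 5.93 gigabases of aligned sequence per library, the number of reads is unknown, and 5449 to 6964 genes reached 1 TPM. The RNA was labelled polyadenylated and was amplified with a kit that does not mark strand, so values of overlapping or antisense genes are uncertain, yet 55.6% to 69.2% of TPM lay at a ribosomal repeat copy, and transcripts without a reference gene held 21.8% to 72.6% of TPM. The 4 measures of library makeup did not differ between the arms beyond their spread (exact permutation test, two-sided, p = 0.66 to 0.83 over 4 measures, adjusted p = 0.83 for each, smallest possible p 0.0286). Replicates correlated at r = 0.844 to 0.871 and libraries of different groups at r = 0.83 to 0.868, across genes, which are not independent replicates. Of 14 fibroblast markers 12 were tested and none rose or fell, with a summed level of 539 to 598 TPM without and 516 to 717 TPM with virus. Gapdh, which every cell uses, was listed at only 1.29 to 3.32 TPM, so a value of 0 can be a failed assembly and is given as listed at 0. In bulk RNA, fewer converted cells and less RNA per converted cell cannot be told apart.

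With virus, 14 of 6103 tested genes rose (0.229%) and 2 fell (0.0328%), 0.262% in either direction, while the median log2 change of all tested genes was -0.02. The genes that rose were the myogenic factors Myod1 and Myog, the chromatin regulator Smyd1, the fusion protein gene Mymk, the sarcomere genes Acta1, Actc1, Tpm2 and Myl1, the integrin Itga7, the imprinted genes Igf2 and H19, Gm49394 at the Igf2 locus, the peptide hormone gene Cck, and the p53 regulator Mdm4. Fkbp15 and Psmc1 fell. Of the 14 that rose, 10 were under 1 TPM in each library without virus and so passed the filter on low values only through the libraries with virus. Among all tested genes the 4 libraries with virus lay wholly above the 4 without for 146 genes (2.39%) and wholly below for 110 genes (1.8%).

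**Figure D1:**
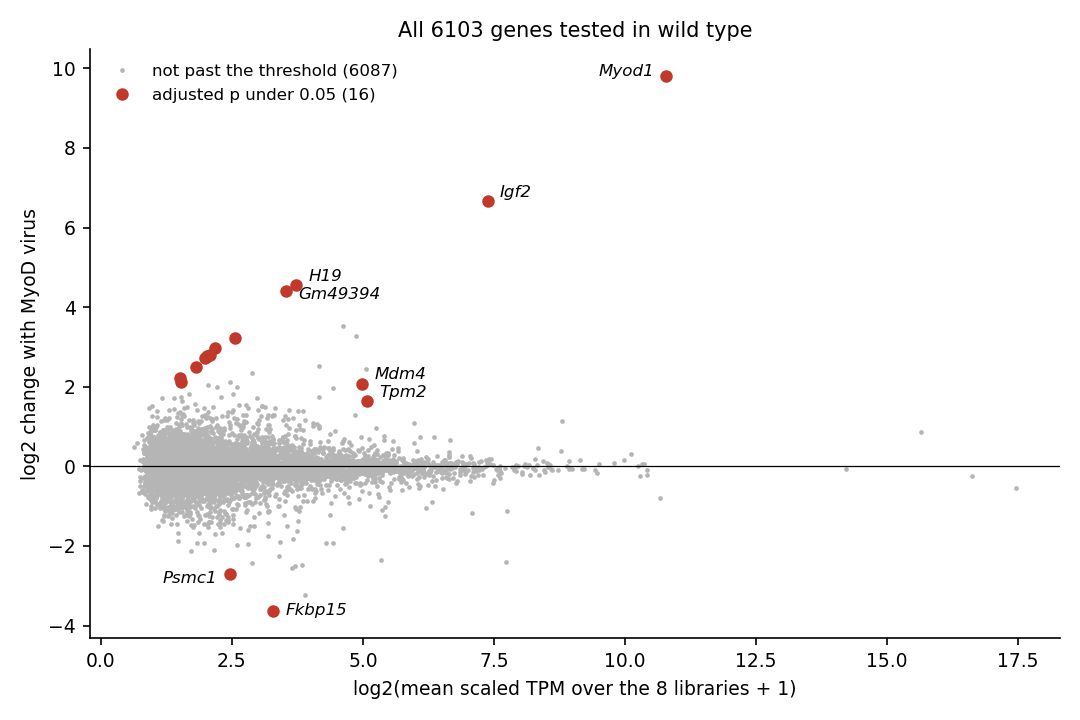
Each point is 1 of 6103 tested genes, with the log2 of its mean scaled TPM over the 8 wild type libraries plus 1 on the horizontal axis and its log2 change with MyoD virus on the vertical axis. The 16 red points passed the threshold, and Myod1 and Igf2 stand highest at 9.81 and 6.65.

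Myod1, the gene delivered by the virus, stood at 3.12 and 2.65 TPM in the untreated libraries and at 2.85 and 3.15 TPM with the plasmid alone. With virus it stood at 3269.8 and 3191 TPM, and at 3536 and 4190.3 TPM with virus and plasmid. The arms were far apart and the replicates close, which checks the virus labels of all 8 libraries. The rise was 1205-fold between means, or 9.81 ± 0.10 on the log2(TPM + 1) scale (SE, n = 4 against 4, limma adjusted p = 1.71e-09). All of the Myod1 TPM lay on the reference transcript Myod1-201 (chr7:46376474-46379099, plus strand, mm10), and whether it came from the virus or from the chromosomal gene was not tested. The LncMyoD plasmid had its own trace: an unnamed transcript at the LncMyoD locus 1700025L06Rik stood at 2.64 to 8.16 TPM in the 4 libraries with plasmid and was listed at 0 in the 4 without, virus or not.

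Among transcriptional regulators, Myog, which encodes myogenin and drives terminal differentiation, was listed at 0 in all 4 libraries without virus. It stood at 4.62 and 3.26 TPM with virus and at 4.07 and 2.77 TPM with virus and plasmid (adjusted p = 0.0137). Every library with virus was above every library without, which the filter on low values required of a gene listed at 0 there. Smyd1, a muscle-restricted histone methyltransferase that also helps myosin assembly, was listed at 0 without virus and stood at 4.31, 3.69, 6.36 and 11.5 TPM with it (adjusted p = 0.0137). Of 34 listed myogenic regulators 23 were above 0 in any library and 15 were tested, of which Myod1, Myog, Smyd1 and Mymk rose and none fell, beside 0.229% risen of all genes tested. Of the 15, 4 were under 1 TPM in every library without virus and were tested only through those with it. Myod1 was the gene delivered.

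MEF2 genes did not pass the test. Mef2a stood at 4.25 to 8.30 TPM without and 1.65 to 7.09 TPM with virus (adjusted p = 0.952), and Mef2d at 1.57 to 6.34 and 1.29 to 7.56 TPM (adjusted p = 0.994). From named transcripts Mef2c, the form most tied to differentiation, reached at most 0.327 TPM and Myf5, a related myogenic factor, at most 2.66 TPM, and neither was tested. With unnamed transcripts added Mef2c stood at 0, 0, 2.30 and 0.0127 TPM without and at 0.375, 2.63, 1.13 and 3.0 TPM with virus, ranges that overlapped (log2 change 0.92, adjusted p = 0.878). The E protein genes Tcf3, Tcf4 and Tcf12, whose products pair with MyoD, did not pass (adjusted p = 0.883, 0.998 and 0.952). Sox8 was listed at 0 without virus and at 1.46, 2.21, 4.31 and 1.87 TPM with it, which missed the threshold (adjusted p = 0.0906).

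The promoter regions of 6 genes that rose are shown, because these genes were low or listed at 0 in every library without virus and were read in every library with it. Igf2, Cck, Actc1 and Smyd1 are the 4 largest rises with an entry after Myod1, whose RNA may come from the virus, while Acta1 and Myog were picked once their values were known. The sequences are from RefSeq (GRCm38.p6), read 5′ to 3′ on the gene's strand up to the RefSeq start, and capitals mark each CANNTG. Bases that GENCODE vM21 places in an untranslated exon were left out, so Actc1 and Myog are shorter. The positions are chr7:142657497-142657746 (minus) for Igf2, chr9:121495695-121495944 (minus) for Cck, chr2:114052888-114053125 (minus) for Actc1, chr6:71262282-71262531 (minus) for Smyd1, chr8:123894776-123895025 (minus) for Acta1 and chr1:134289754-134289988 (plus) for Myog.
Igf2: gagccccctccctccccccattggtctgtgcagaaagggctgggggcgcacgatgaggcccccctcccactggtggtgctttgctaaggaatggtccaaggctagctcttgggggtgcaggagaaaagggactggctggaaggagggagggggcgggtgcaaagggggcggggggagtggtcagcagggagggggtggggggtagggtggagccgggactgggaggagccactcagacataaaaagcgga
Cck: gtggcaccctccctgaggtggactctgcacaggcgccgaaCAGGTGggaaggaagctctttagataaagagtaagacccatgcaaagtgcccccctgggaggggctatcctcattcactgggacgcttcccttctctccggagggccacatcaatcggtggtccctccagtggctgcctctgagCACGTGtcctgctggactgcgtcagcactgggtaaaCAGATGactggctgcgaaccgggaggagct
Actc1: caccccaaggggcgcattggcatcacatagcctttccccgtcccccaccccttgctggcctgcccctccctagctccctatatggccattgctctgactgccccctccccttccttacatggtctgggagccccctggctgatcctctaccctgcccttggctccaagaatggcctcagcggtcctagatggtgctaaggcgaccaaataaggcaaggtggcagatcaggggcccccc
Smyd1: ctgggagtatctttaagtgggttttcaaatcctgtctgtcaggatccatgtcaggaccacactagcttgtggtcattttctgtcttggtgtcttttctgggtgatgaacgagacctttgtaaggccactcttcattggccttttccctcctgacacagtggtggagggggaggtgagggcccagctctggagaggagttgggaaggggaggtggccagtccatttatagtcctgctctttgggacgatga
Acta1: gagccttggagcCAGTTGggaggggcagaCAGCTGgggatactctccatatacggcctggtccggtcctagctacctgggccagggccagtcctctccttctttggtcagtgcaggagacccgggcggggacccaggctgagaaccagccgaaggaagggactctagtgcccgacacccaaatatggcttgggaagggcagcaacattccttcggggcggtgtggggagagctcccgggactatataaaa
Myog: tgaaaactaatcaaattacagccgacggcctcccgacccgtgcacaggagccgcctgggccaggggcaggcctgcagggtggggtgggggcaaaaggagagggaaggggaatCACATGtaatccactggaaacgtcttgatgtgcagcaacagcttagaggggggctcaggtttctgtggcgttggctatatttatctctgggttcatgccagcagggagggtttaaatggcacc

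Cck held 3 E-boxes in this window, with CAGGTG at 210 bases before the start, CACGTG at 66 bases and CAGATG at 30 bases. Acta1 held CAGTTG at 238 bases and CAGCTG at 221 bases before its start, and Myog held CACATG at 138 bases. No CANNTG was in the windows of Igf2, Actc1 and Smyd1, which says only that these letters are not in this window. Of the 13 genes other than Myod1 that rose, 9 had an entry, with 13 promoters between them. CAGCTG, which reads the same on both strands, was in 4 of these 13 promoters (30.8%) and in 13% of all 32851 promoters of the same 250 bases. CAGGTG or its complement CACCTG was in 1 of 13 (7.69%) against 17.2%, and any CANNTG, which includes both, in 7 of 13 (53.8%) against 66.2%. These matches are a description and no test was run on them.

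Genes of the thin filament of the sarcomere rose in part. Actc1, the cardiac alpha-actin that early skeletal muscle also makes, was listed at 0 without virus and stood at 7.85, 8.96, 6.08 and 5.08 TPM with it (adjusted p = 0.00225). Acta1, the skeletal alpha-actin, was listed at 0 without and stood at 3.89, 5.29, 6.37 and 8.90 TPM with virus (adjusted p = 0.00546). The 2 actins are near-identical in coding sequence, so the way the assembler split reads between them is uncertain.

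Tpm2, the beta-tropomyosin gene, was also expressed in the libraries without virus. It stood at 11.1, 18.5, 14.3 and 17.7 TPM without virus and at 43.5, 35.8, 61.2 and 60.0 TPM with it. That is a rise from 15.4 ± 3.39 to 50.1 ± 12.5 TPM (SD, n = 4), 3.25-fold, or 1.63 ± 0.19 on the log2 scale (SE, adjusted p = 0.0175). The rise lay on transcript Tpm2-202, at 5.99 to 16.3 TPM without and 29.3 to 57.7 TPM with virus, while Tpm2-201 stood at 1.04 to 6.81 and 1.71 to 9.52 TPM. Transcripts were not tested singly. Of 22 listed thin filament genes 16 were above 0 and 5 were tested, of which 3 rose and none fell, beside 0.229% risen of all genes tested. Of the 5, 2 were under 1 TPM in every library without virus and were tested only through those with it.

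In the thick filament, Myl1, the fast essential myosin light chain, was listed at 0 without virus and at 2.65, 5.28, 7.70 and 8.23 TPM with it (adjusted p = 0.0137). Mylpf, the fast regulatory light chain, was listed at 0 without and at 1.04, 1.88, 2.11 and 2.78 TPM with virus and missed the threshold (adjusted p = 0.0906). Of 24 listed thick filament genes only 7 were above 0 in any library and 3 were tested. The embryonic myosin Myh3 was listed at 0 in all 8 libraries under this way of naming transcripts, and so were Myh2, Myh4, Myh7 and Myh8.

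Genes of the cell surface and of fusion gave few calls. Mymk, which encodes myomaker, a membrane protein needed for myoblast fusion, was listed at 0 without virus and at 4.26, 2.16, 8.16 and 5.64 TPM with it (adjusted p = 0.0246). Its partner gene Mymx and the muscle cadherin gene Cdh15 were listed at 0 in all 8 libraries. Chrng, the gamma subunit of the embryonic acetylcholine receptor, was listed at 0 without and at 3.91, 1.22, 4.66 and 5.38 TPM with virus and missed the threshold (adjusted p = 0.0805).

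Itga7, the laminin-binding integrin of muscle, stood at 0.0156, 0.0172, 0.0860 and 0.00273 TPM without virus and at 2.53, 2.18, 6.31 and 3.99 TPM with it (adjusted p = 0.0324). When unnamed transcripts that overlap its exons were added, as described further on, 2 libraries without virus came to 1.37 and 1.31 TPM, and the gene missed the threshold (adjusted p = 0.213).

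**Figure D2:**
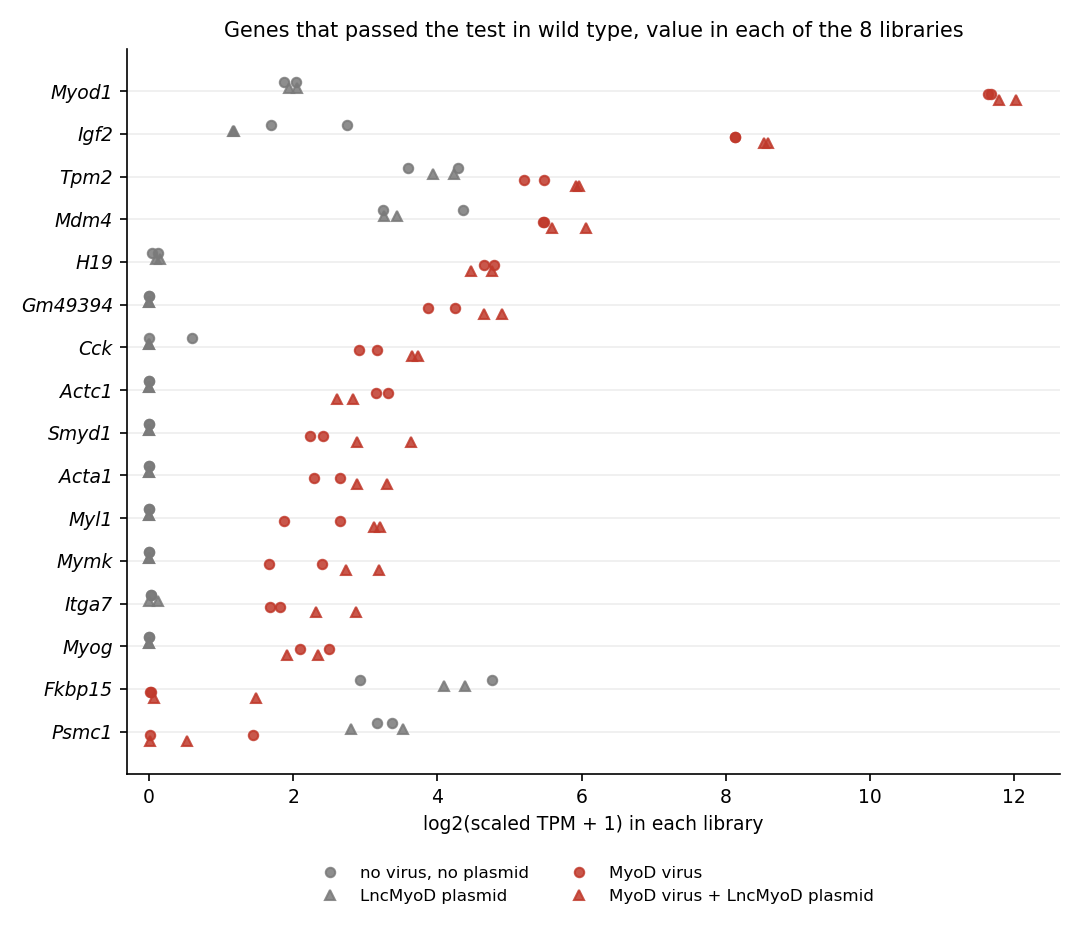
Each row is 1 of the 16 genes that passed the test, and each symbol is its log2(scaled TPM + 1) in 1 of the 8 wild type libraries, grey without and red with MyoD virus, circles without and triangles with LncMyoD plasmid. Red and grey do not overlap in any row, and 7 of the 14 genes that rose were listed at 0 in every grey library. For the 10 risen genes under 1 TPM in every grey library the filter on low values required the separation.

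Igf2, which encodes insulin-like growth factor 2, showed the largest rise after Myod1 on the log2(TPM + 1) scale. From named transcripts the ratio of means was larger for H19 (330-fold against 126-fold), whose values without virus were near 0. With unnamed transcripts added, as described further on, that order turned (55.1-fold for H19 against 128-fold for Igf2). From named transcripts Igf2 stood at 2.23, 5.68, 1.26 and 1.23 TPM without virus and at 279, 278, 385 and 371 TPM with it. That is a rise from 2.6 ± 2.1 to 328 ± 57.8 TPM (SD, n = 4), 126-fold, or 6.65 ± 0.34 on the log2 scale (SE, adjusted p = 0.000122). Between 96.2% and 99.5% of the Igf2 TPM in each library lay on transcript Igf2-201 (chr7:142650766-142657496, minus strand, mm10), whose start adjoins the promoter printed above. Igf2-203, which starts further upstream at 142666816, reached at most 1.93 TPM.

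Gm49394, annotated over the same interval (chr7:142650769-142669942, minus), was listed at 0 without virus and at 17.9, 13.7, 28.7 and 24.2 TPM with it (adjusted p = 0.000137). It overlaps Igf2 on the same strand, so its reads may not be told apart from those of Igf2 and its value is uncertain. It is a predicted gene named here after its values were seen.

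H19, an imprinted long noncoding RNA gene on the same chromosome (chr7:142575529-142578143, minus), has no entry in the promoter table. It stood at 0.0884, 0.0309, 0.112 and 0.0646 TPM without virus and at 26.6, 23.9, 26.0 and 21.1 TPM with it, 4.56 ± 0.19 on the log2 scale (SE, adjusted p = 3.38e-05). The 4 libraries with virus lay close together, and 88.0% to 99.3% of their H19 TPM was on transcript H19-202. No other listed imprinted gene passed: of 32 members 12 were tested, and Igf2 and H19 rose, with Mest, Gnas and Cd81 at log2 changes of 0.02, -0.01 and 0.09.

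The IGF pathway outside Igf2 itself gave no call. Of 22 listed members 11 were tested and Igf2 alone rose, with Igf1 at a log2 change of 0.01, the binding protein genes Igfbp3, Igfbp4 and Igfbp7 at 0.74, -0.06 and -0.34, and the adaptor gene Irs1 at 0.16. The list's median log2 change was 0.01, against -0.02 over all genes tested.

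Cck, which encodes the peptide hormone cholecystokinin, was listed at 0 in 3 libraries without virus and stood at 0.514 TPM in untreated replicate 2. With virus it stood at 7.97, 6.56, 11.6 and 12.3 TPM, 3.22 ± 0.29 on the log2 scale (SE, adjusted p = 0.00462). All 4 libraries were above the 4 without, which the filter required of a gene this low without virus. Of 35 listed genes of muscle energy supply and secreted peptides, 10 were tested and Igf2 and Cck rose, beside 0.229% risen of all genes tested. Cck was tested only through the libraries with virus. The muscle creatine kinase gene Ckm and the myoglobin gene Mb were listed at 0 in all 8 libraries.

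Mdm4, Fkbp15 and Psmc1 are not muscle genes, and their calls rested on which transcripts carried a reference name. Mdm4, whose product inhibits p53, stood at 19.4, 8.52, 8.54 and 9.85 TPM without and at 43.2, 43.6, 47.2 and 65.9 TPM with virus (2.08 ± 0.28 on the log2 scale, SE, adjusted p = 0.0334). With overlapping unnamed transcripts added it stood at 46.7 to 67.4 and 70.8 to 82.3 TPM (log2 change 0.43, adjusted p = 0.697).

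Fkbp15, a gene of the FK506-binding family, stood at 6.57, 26.0, 16 and 19.8 TPM without virus and at 0.00844, 0.0203, 0.0522 and 1.79 TPM with it (adjusted p = 0.0246). Psmc1, a proteasome ATPase gene, stood at 7.92, 9.38, 5.95 and 10.5 TPM without and at 0.0113, 1.73, 0.00592 and 0.438 TPM with virus (adjusted p = 0.0336). With unnamed transcripts added the direction of both turned and neither passed. Fkbp15 then stood at 26.4 to 39.3 TPM without and 29.9 to 54.8 TPM with virus (log2 change 0.35, adjusted p = 0.886), and Psmc1 at 7.81 to 10.6 and 9.62 to 42.7 TPM (log2 change 1.34, adjusted p = 0.558).

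Because so much TPM lay on unnamed transcripts, each of these was also counted toward the annotated gene whose exons covered 50% or more of it, if the strands matched, an alternative added after the data were seen. It moved 5.88% to 53.9% of TPM per library to a gene. Of 9773 genes then tested, 30 rose (0.307%) and 2 fell (0.0205%), 0.327% in either direction, and 12 of the 16 earlier calls were shared. Myod1, Igf2, H19, Gm49394, Actc1, Acta1, Myog, Smyd1, Cck, Mymk, Myl1 and Tpm2 rose again. The arms did not overlap for 211 genes higher with virus (2.16%) and 157 lower (1.61%). Tpm2 then stood at 20.0 to 21.8 TPM without and 38.3 to 63.1 TPM with virus. Among the 18 added rises Ttn, Chrng and Nmrk2 belonged to the fixed set of genes, chosen with earlier results of these data known. The others were named after their values were seen.

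Ttn, which encodes titin, the elastic spring of the sarcomere, stood at 0.974, 2.36, 1.93 and 1.67 TPM without virus and at 49.6, 58.8, 48.1 and 62.3 TPM with it. That is a 31.6-fold rise between means, 4.37 ± 0.20 on the log2 scale (SE, adjusted p = 5.98e-06), whereas transcripts carrying the Ttn reference name held at most 1.99 TPM. Neb, which encodes nebulin along the thin filament, was at 0, 0.875, 0 and 0 TPM without and at 6.98, 10.3, 11.8 and 11.2 TPM with virus (adjusted p = 0.00062).

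Ryr1, the calcium release channel of skeletal muscle, was listed at 0 without virus and at 6.27, 7.78, 9.63 and 8.01 TPM with it (adjusted p = 0.000155). Atp2a1, the fast-muscle calcium pump, was listed at 0 without and at 4.99, 6.05, 8.19 and 13.8 TPM with virus (adjusted p = 0.000562). Ryr3 stood at 0 to 0.280 TPM without and 1.74 to 8.0 TPM with virus (adjusted p = 0.0244). Among 28 listed genes of calcium handling and excitation, 10 were tested in this way and these 3 rose, beside 0.307% risen of all genes tested. These 3 were under 1 TPM in every library without virus and so were tested only through those with it. From named transcripts 1 was tested and none called.

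Chrng, just short of the threshold before, then stood at 5.50, 9.78, 5.95 and 5.15 TPM with virus and at 0 without (adjusted p = 0.000562). Sgca, the alpha-sarcoglycan of the dystrophin complex, was at 2.83, 1.60, 1.37 and 2.04 TPM without and at 13.7, 11.5, 15.1 and 7.15 TPM with virus, 6.05-fold (adjusted p = 0.00658). All 8 values of each gene separated the arms, which for Chrng, listed at 0 without virus, follows from the filter on low values. Thick and thin filament genes Myh1, Mybph and Tnnt3 were listed at 0 without virus and stood at 2.09 to 8.78, 1.77 to 3.41 and 1.84 to 2.5 TPM with it (adjusted p = 0.0163, 0.0116 and 0.0229). Embryonic myosin Myh3 stood at 1.66, 0.728, 3.59 and 2.87 TPM with virus and 0 without, which was too low to be tested.

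Other added rises were Smpx, Sox8, Nmrk2, Best3, Serinc2, Rbms3, Gm10722 and Gm10717. Nmrk2, a nicotinamide riboside kinase enriched in muscle, was listed at 0 without virus and at 21.9, 4.93, 16.4 and 4.22 TPM with it. Both first replicates were higher than both second replicates, all 4 were above the libraries without virus, and it passed at adjusted p = 0.0134. Rbms3, an RNA-binding protein gene, was high in both arms, at 43.1 to 60.3 TPM without and 93.9 to 137 TPM with virus (2.1-fold, adjusted p = 0.0094), but from named transcripts its values overlapped (log2 change -1.11, adjusted p = 0.952). Gm10722 and Gm10717 lie at the start of chromosome 9 (chr9:3000922-3002330 and chr9:3025417-3033289, plus strand) and are predicted multicopy genes, so their reads are uncertain.

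The 2 falls with unnamed transcripts added were Commd6 and Epn3. Commd6, a COMM domain gene, stood at 28.7, 33.4, 26.4 and 28.4 TPM without and at 7.59, 8.76, 13.5 and 14.3 TPM with virus (log2 change -1.37, adjusted p = 0.018). Epn3, an epsin of endocytosis, was at 3.20, 1.86, 2.46 and 1.32 TPM without and listed at 0 in all 4 libraries with virus (adjusted p = 0.0486). The arms were fully separated for both, and both genes were chosen after their values were seen. Epn3 passed the filter on low values only through the libraries without virus, so its separation follows from the filter. From named transcripts Epn3 reached at most 1.25 TPM and was not tested.

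**Figure D3:**
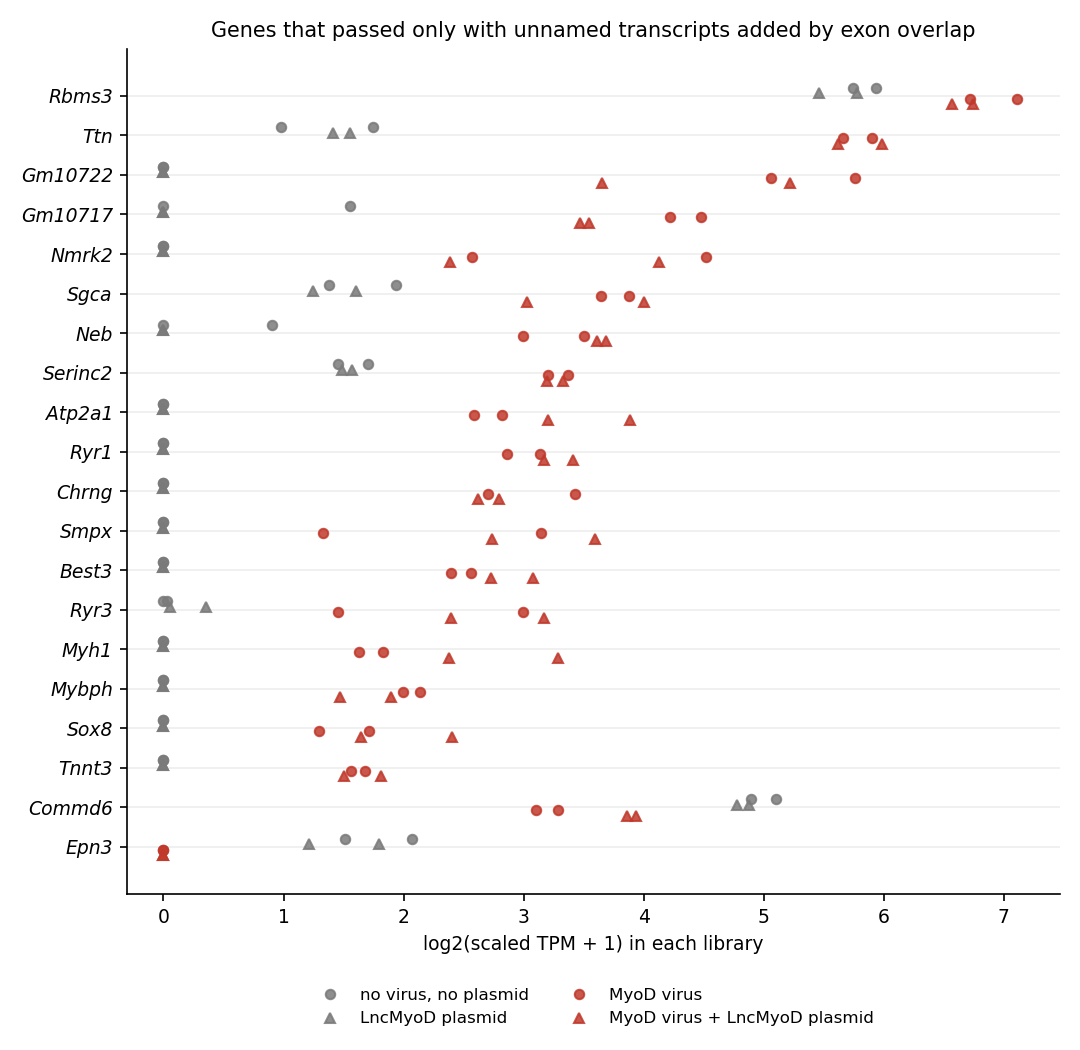
Each row is 1 of the 20 genes that passed only when unnamed transcripts were added by exon overlap, and each symbol is its log2(scaled TPM + 1) in 1 wild type library, grey without and red with MyoD virus, circles without and triangles with LncMyoD plasmid. Ttn moves from 0.974 to 2.36 TPM up to 48.1 to 62.3 TPM, and the 2 lowest rows are the falls, Commd6 and Epn3.

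Over 8 muscle lists with 228 different genes, 60 were tested from named transcripts and 11 rose with none falling, beside 0.229% of all genes tested. With unnamed transcripts added 110 were tested and 23 rose with none falling, beside 0.307%. The lists were chosen with earlier results of these data known, and members silent without virus entered the test only through the libraries with virus. Over the 17 other lists with 474 further genes, 231 were tested and H19 alone rose, and with unnamed transcripts 343 were tested and again H19 alone rose.

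**Figure D4:**
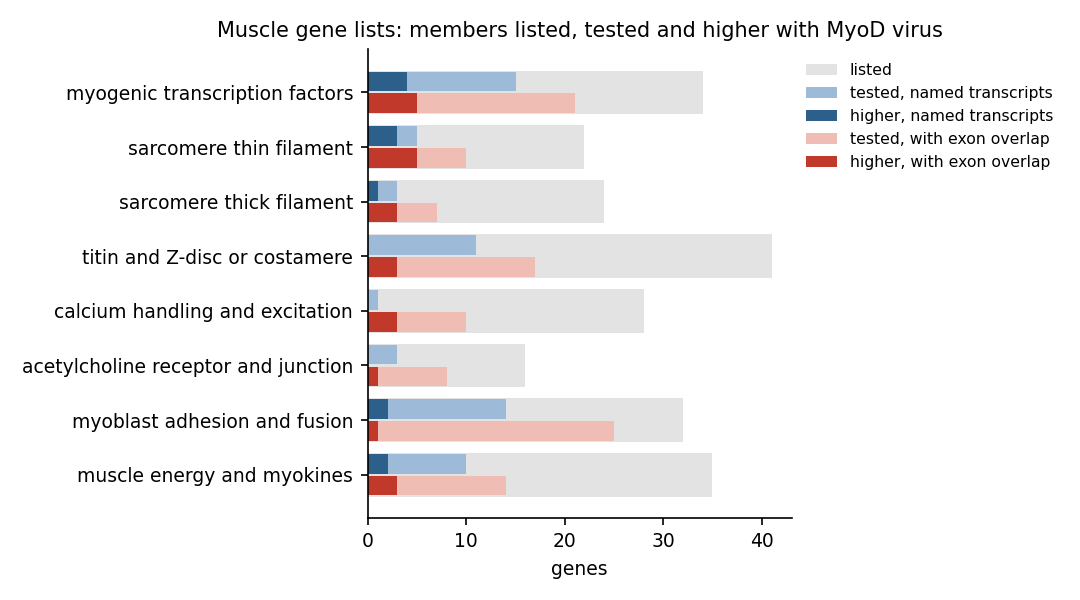
Bars give, for 8 muscle gene lists, the number of genes listed (grey), tested (pale) and risen with MyoD virus (dark), blue from transcripts with a reference name and red with unnamed transcripts added by exon overlap. Many listed genes were too low to be tested in either way, for example 41 listed, 11 tested and none risen for titin and the Z-disc from named transcripts, against 17 tested and 3 risen with overlap.

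Cell cycle genes gave no call in either direction. Of 38 genes of cell cycle and mitosis 11 were tested, at log2 changes of -1.0 to 0.60 (smallest adjusted p = 0.883), and of 37 replication genes 13 were tested (smallest adjusted p = 0.839). Cdkn1a, which encodes the p21 inhibitor that differentiating muscle induces, stood at 114, 125, 118 and 128 TPM without and at 121, 128, 120.2 and 139.5 TPM with virus. Those ranges overlapped (log2 change 0.07 ± 0.09, SE, adjusted p = 0.968). Ccnd1, which encodes cyclin D1 and falls in many differentiating cells, stood at 10.2 to 15.6 and 10.9 to 12.9 TPM (adjusted p = 0.994).

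Fibroblast matrix genes likewise gave no call. Col1a1, the alpha-1 chain of type I collagen, stood at 129, 121, 117 and 125 TPM without and at 111, 108, 128 and 132 TPM with virus (log2 change -0.04 ± 0.10, SE, adjusted p = 0.978). Of 42 listed collagen and matrix genes 29 were tested, with a median log2 change of -0.02 and a smallest adjusted p of 0.633 for Mfap5, a microfibril protein gene at 16.9 to 21.3 TPM without and 10.6 to 16.4 TPM with virus. Inhibitors of bHLH factors did not pass the test: Id1 and Id3 had log2 changes of 0.07 and 0.30 (adjusted p = 0.994 and 0.931), while Hes6, a Hes family gene that promotes myogenesis, stood at 0.900 to 1.67 and 2.83 to 6.12 TPM without passing (adjusted p = 0.124).

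Interferon genes, which infection by a virus can induce, gave no call among 11 tested of 38 listed. Their median log2 change was 0.40, and 0.24 over 20 tested with unnamed transcripts added, against -0.019 and -0.005 over all genes. Ifi44 came nearest, at 0.0366, 0.0340, 0.267 and 2.99 TPM without and 3.58, 5.09, 6.43 and 6.57 TPM with virus (adjusted p = 0.153). Ifit1 and Oasl2 had log2 changes of 0.40 and 0.78 (adjusted p = 0.952 and 0.927). Coactivators and chromatin regulators that work with MyoD gave none among 15 tested of 32 listed, with Ep300 at -0.14, Smarca4 at 0.02 and Carm1 at 0.32.

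Markers of several other cell types were low in both arms, at a summed level of at most 1.60 TPM for macrophages, 2.31 TPM for endothelium, 0.723 TPM for epithelium and 1.58 TPM for cardiomyocytes, with Csf1r, Kdr, Cdh1 and Myh6 listed at 0 in all 8 libraries. With unnamed transcripts added the sums reached at most 3.67, 6.11, 1.73 and 3.38 TPM. Neuron and glia markers summed to at most 6.68 TPM and adipocyte markers to at most 3.70 TPM. Cartilage and bone markers summed to 126 to 157 TPM without and 102 to 141 TPM with virus, and none of the 3 tested rose or fell. Of 10 listed satellite cell markers 3 were tested and Itga7 rose, beside 0.229% risen of all genes tested. Itga7 was tested only through the libraries with virus. Pax3, a factor of muscle progenitors, was listed at 0 throughout.

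The response was also compared with and without plasmid. The difference of the virus responses passed for 1 of 6103 genes (0.0164%), Rnf4, a ubiquitin ligase gene (log2 difference -5.71 ± 0.43, SE, adjusted p = 0.0267). Rnf4 stood at 119 and 100.0 TPM with virus alone but at 2.03 and 2.07 TPM with virus and plasmid, and at 0.279 to 1.46 TPM without virus. With unnamed transcripts added it stood at 120.2 and 103 TPM with virus alone, 55.0 and 56.8 TPM with both and 56.3 to 191 TPM without virus, and the difference was -0.05 (adjusted p = 0.998). In that setting the only call was Fam149a (log2 difference -3.68, adjusted p = 0.0456), which was chosen after its values were seen. Leaving out 1 library at a time left 0 to 5 calls.

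None of the 14 genes that rose passed the test for a difference with plasmid, at adjusted p of 0.635 to 0.983. Igf2 had the lowest of these, at a log2 difference of 1.49 ± 0.45 in the fit over 8 libraries (SE, adjusted p = 0.635). For Myod1 that difference was 0.21 ± 0.20. Separate fits within each plasmid arm, scaled apart, gave responses of 5.94 without and 7.31 with plasmid for Igf2. For Myod1 they gave 9.74 and 9.86, so these responses do not subtract exactly to the differences. Fits within one plasmid arm held 2 libraries a side and called only Myod1 and Igf2 in each. The filter asks for 1 TPM in 4 libraries, so the 10 risen genes under 1 TPM without virus were not tested there. Tpm2 and Mdm4 were tested in both arms and missed the threshold.

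The virus response in wild type was set against that in each knockout clone in a fit over all 24 libraries, whose scaling gives other TPM values than above. Wild type minus clone 1 differed for 30 of 12169 genes (0.247%), 22 of them with a positive difference (0.181%) and 8 with a negative one (0.0657%). Wild type minus clone 2 differed for 364 (2.99%), 187 positive (1.54%) and 177 negative (1.45%). A positive difference can be a larger rise in wild type or a larger fall in the clone. The clone 2 libraries stood apart in makeup: the ribosomal window held 2.68% to 7.9% of TPM against 55.6% to 69.2% in wild type, mitochondrial genes 7.91% to 14.0% against 2.06% to 3.84%, and 10416 to 13253 genes reached 1 TPM against 5449 to 6964. The part of this makeup in the clone 2 differences was not tested. Clone 1 libraries held 2.43 to 5.1 gigabases of aligned sequence, against 4.4 to 5.93 in wild type. In clone 1, 4273 to 5759 genes reached 1 TPM. The clone 1 count fell to 2 without scaling and to 9 with unnamed transcripts added. Leaving out 1 clone 1 library took it to 193 without virus alone replicate 2, 115 and 58 without virus and plasmid replicate 1 or 2, and 47 without untreated replicate 1. The clone 2 count fell to 239 without untreated clone 2 replicate 1, to 217 and 199 without plasmid alone replicate 1 or 2, and to 183 without untreated clone 2 replicate 2. Without scaling, 1758 genes differed from clone 2. Of these 91.6% had a positive difference, against 51.4% with scaling, and the median over all genes moved from -0.01 to 0.42. Igf2 stood at 478 to 665 TPM with virus in wild type, at 78.6 to 138 TPM in clone 1 and at 4.15 to 8.14 TPM in clone 2. Its response was larger in wild type by 2.52 ± 0.40 than in clone 1 (SE, adjusted p = 0.0116) and by 4.34 ± 0.40 than in clone 2 (adjusted p = 1.53e-05). Without scaling the first missed the threshold (adjusted p = 0.0852) and the second did not (adjusted p = 0.000755). Igf2 stood without virus at 2.18 to 9.81 TPM in wild type and at 0.0256 to 0.204 TPM in clone 2. The size of its difference from clone 2 therefore depends on the pseudocount.

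Myod1 itself reached 5493 to 7501 TPM with virus in wild type, 4423 to 8242 TPM in clone 1 and 265 to 303 TPM in clone 2. Its response did not pass as different from clone 1 (0.58 ± 0.20, adjusted p = 0.352) but did from clone 2 (2.02 ± 0.20, adjusted p = 4.92e-05), which was lost without scaling (0.55, adjusted p = 0.296) and with quantile normalization (0.90, adjusted p = 0.312). Without virus Myod1 stood at 4.58 to 5.57 TPM in wild type and at 0 to 0.250 TPM in clone 2, so the size of this difference depends on the pseudocount as well as on the scaling. On these values the plain ratio of mean TPM with to without virus was larger in clone 2 than in wild type. The direction of the difference therefore also depends on the pseudocount. The part of the Myod1 level in the Igf2 difference was not tested. H19 rose in all 3 lines, by 5.27, 4.8 and 4.45, and neither difference passed (adjusted p = 0.735 and 0.203).

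Muscle genes did not follow one order across the lines. Smyd1 stood at 6.35 to 20.5 TPM with virus in wild type, was listed at 0 in all clone 1 libraries and reached 0.988 TPM in clone 2, and both differences passed (adjusted p = 0.000156 and 8.27e-05), though neither did with unnamed transcripts added (adjusted p = 0.609 and 0.162). Myog reached 12.5 to 28.2 TPM with virus in clone 2, against 4.96 to 8.05 TPM in wild type and 7.2 TPM in 1 of 4 clone 1 libraries, and neither difference passed (adjusted p = 0.275 and 0.244). Several clone 1 libraries lay below all of wild type in depth and in genes at 1 TPM. The part of this in the clone 1 values of 0 was not tested. The fast light chain Mylpf and the troponin Tnnc2 responded less in wild type than in clone 2 by 3.61 and 4.19 on the log2 scale (adjusted p = 9.04e-05 and 8.27e-05), and both kept passing with unnamed transcripts added.

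**Figure D5:**
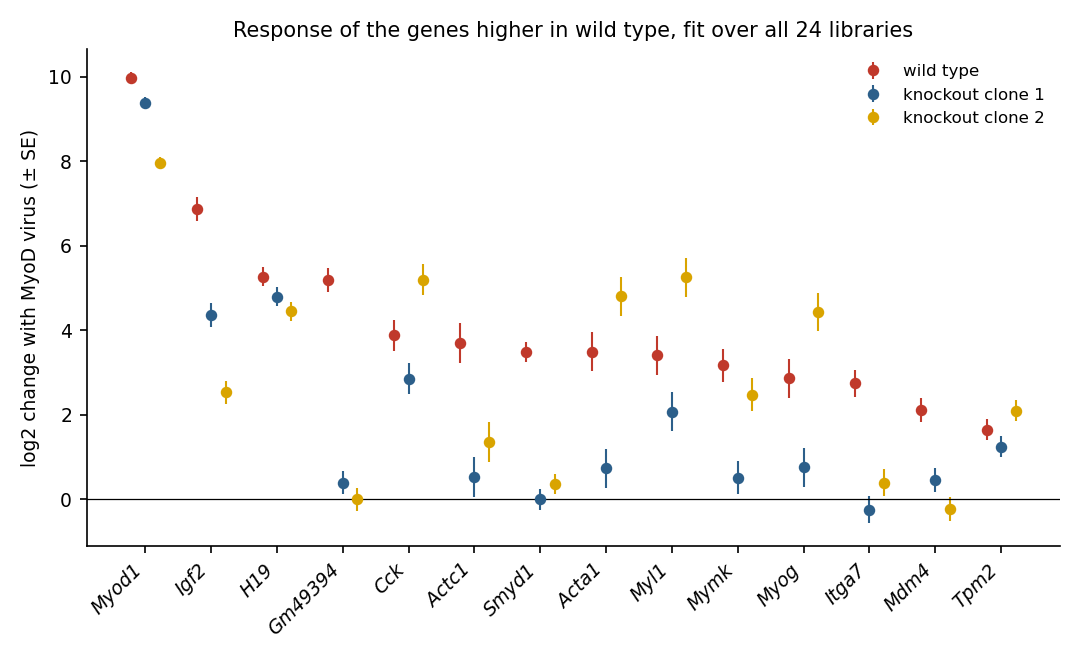
For each of the 14 genes that rose in wild type, points give the log2 change with MyoD virus on the log2(scaled TPM + 1) scale in wild type and 2 knockout clones, with bars of 1 SE from 1 fit over 24 libraries with 8 per line. Values of genes under 1 TPM or listed at 0 without virus depend on the pseudocount of 1. Igf2 stands at 6.87 in wild type, 4.35 in clone 1 and 2.53 in clone 2, while H19 stands between 4.45 and 5.27 in all 3.

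Counts depended on single libraries. Leaving out any 1 of the 4 libraries with virus left 2 genes risen. The filter asks for 1 TPM in 4 libraries, so the 10 risen genes under 1 TPM without virus were then no longer tested, while Tpm2 and Mdm4 were tested and missed the threshold. Leaving out 1 library without virus left 8 to 10. Myod1 and Igf2 passed in all 25 settings run, H19 and Gm49394 in 19 of 19 and Acta1, Actc1 and Cck in 18 of 18. With the replicate number as a block Mymk, Itga7 and Mdm4 missed the threshold (adjusted p = 0.0504, 0.0753 and 0.0852), and Mymk also did with a pseudocount of 5 and without a filter on low values. Myog and Mymk missed it without any 1 of the 4 libraries without virus, and Smyd1 and Myl1 without either library with plasmid alone (highest adjusted p 0.067, 0.114, 0.0689 and 0.0704 over all settings). Tpm2 missed it without any 1 library except untreated replicate 2, Itga7 without any 1 library without virus, and Mdm4 without any 1 except untreated replicate 1 (highest adjusted p 0.751, 0.213 and 0.751 over all settings). Fkbp15 missed it without any 1 library except the untreated ones, and Psmc1 without any 1 except virus alone replicate 2 (highest adjusted p 0.909 and 0.959).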

How the data were processed

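The deposited files hold, per the file headers, StringTie 2.1.2 transcript assemblies with TPM, FPKM and coverage for each transcript, computed by the authors. Per the submitters' processing notes the tools were bcl2fastq 2.19, Trimmomatic 0.36, HISAT2 2.1.0, SAMtools 1.3 and StringTie 1.3.3 with build mm10, so the StringTie version differs from the headers. Deposited TPM was summed over transcripts with a reference gene identifier, and all 35260 identifiers were found in GENCODE vM21. Libraries were scaled by the median of ratios. Genes with at least 1 scaled TPM in at least 4 of 8 libraries were tested with limma 3.58.1 (R 4.3.3, moderated test, two-sided) on log2(TPM + 1) with virus and plasmid as terms, and fold changes on this scale understate the change of low genes. Of 6103 genes, 338 had an unadjusted p under 0.05. The plasmid interaction used the same libraries, and the clones a fit over 24 libraries.

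Members and lists were chosen with earlier results of these data known. Genes were named from a set of muscle, cell cycle and matrix genes, the largest calls whose arms did not overlap and reached a mean of 5 TPM, and called list members. Deviations of same-numbered replicates had r of -0.018 to 0.042 over 6 pairs of groups. Each r was taken over all genes tested, so pairing that touched few genes could go unseen, and whether the numbers pair the samples was not settled. The test was also run on simulated data with known changes. That simulation put normal noise around each gene's mean and held no shifts between named and unnamed transcripts, so it does not cover them. Alternatives were other pseudocounts, filters, scalings, FPKM, voom, robust moderation, the replicate block, other sets of libraries, and, added after the data were seen, unnamed transcripts given by exon overlap.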

Additional observations from a re-analysis of the deposited data

Results flagged for a closer look

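In Ccnd1 1 library with virus was apart from the other three, which lay close together, at 12.9 TPM in virus alone replicate 2 against 10.9 to 11.1 TPM, and within the 10.2 to 15.6 TPM without virus. In Fkbp15 1 was apart, at 1.79 TPM in virus and plasmid replicate 2. Chance gives about 1 such library in 20 groups. The virus response of Rnf4 differed with plasmid by -5.71 on the log2 scale.

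The response in wild type differed from clone 1 for several named genes, on the log2 scale by 2.99 for Itga7, 2.62 for Chrng, 2.52 for Igf2, 3.49 for Smyd1 and 4.79 for Gm49394. Wild type minus clone 2 was 2.05 for Col1a1, 2.02 for Myod1, 2.35 for Itga7, 4.34 for Igf2, 2.34 for Mdm4, 3.12 for Smyd1 and 5.19 for Gm49394. A positive difference need not be a larger rise in wild type, where Col1a1 had a log2 change of -0.04 in the fit of wild type alone. Without virus Myod1 and Igf2 were lower in clone 2 than in wild type, so the sizes of their differences depend on the pseudocount. For Myod1 the direction does too, as its plain ratio of means was larger in clone 2. The difference from clone 2 was -4.19 for Tnnc2, -3.61 for Mylpf, -1.46 for Mymx, -1.40 for Ckm and -0.70 for Cdkn1a. Each passed the test of the difference itself with scaled TPM of named transcripts in the fit over 24 libraries, but not all held in other settings. From clone 1, without scaling, Itga7 (adjusted p = 0.555), Chrng (0.0852), Igf2 (0.0852) and Smyd1 (0.141) missed the threshold, and with unnamed transcripts added Itga7 (0.580), Chrng (0.420) and Smyd1 (0.609) did. From clone 2, without scaling, Myod1 (0.55, adjusted p = 0.296), Itga7 (0.193) and Cdkn1a (0.505) missed it. With quantile normalization Myod1 (0.90, adjusted p = 0.312) and Cdkn1a (0.368) did, and with unnamed transcripts added Itga7 (0.767), Smyd1 (0.162) and Mdm4 (0.58, adjusted p = 0.274) did. The clone 2 libraries also stood apart in their makeup, and several clone 1 libraries were lower in depth than all of wild type.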

How the results depend on the processing

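Of 14 rises, 6 were left with a mean of 5 TPM as filter, 2 in the libraries without plasmid and 2 in those with it, while 28 passed with all 24 libraries in the fit and 30 with exon overlap. Within either plasmid arm the filter of 1 TPM in 4 libraries left 10 of the 14 rises, and also Fkbp15 and Psmc1, untested. Leaving out 1 library gave 2 to 10. The 2 falls became 0 with a pseudocount of 0.1, 0 without a filter, 0 with a mean of 5 TPM, 0 in either plasmid arm, 1 with a pseudocount of 5, 1 with unnamed transcripts given by locus and 5 without a plasmid term, and 0 to 2 without 1 library. The difference with plasmid, 1 gene, became 0 with a pseudocount of 0.1, 0 with a mean of 5 TPM and 0 to 5 without 1 library. The 30 differences from clone 1 became 10 with a mean of 5 TPM, 2 unscaled, 9 with exon overlap and 24 to 193 without 1 library. The 364 from clone 2 became 860 with a pseudocount of 5, 1758 unscaled and 183 to 476 without 1 library. Directions turned for Fkbp15 (0.34 by locus, 0.35 by exon overlap), Psmc1 (1.34 by exon overlap) and Rbms3 (1.06 and 1.05). The cause was not tested. Differences in makeup between arms ran without 1 library from -0.528 to 4.0 (ribosomal percent), -0.391 to 0.203 (mitochondrial percent), -0.745 to 16.2 (percent without reference) and -164.5 to 298.5 (genes at 1 TPM).

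With the replicate block 11 genes rose (Mymk, Itga7 and Mdm4 were lost) and 2 fell with virus, the difference with plasmid had 0 calls (Rnf4 adjusted p = 0.119), and 28 and 343 genes differed from clones 1 and 2. The replicate numbers are shared by label, and whether they mark pairs was not settled.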
